A study of Mus musculus with 6 samples.

Results

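In whole visceral fat, the depot that surrounds the organs of the abdomen, 10 genes of heat production and mitochondrial uncoupling were examined. They were the uncoupling proteins Ucp1, Ucp2 and Ucp3, the PGC-1 coactivators Ppargc1a and Ppargc1b, the beige fat regulators Prdm16 and Dio2, and the creatine cycle genes Gatm, Ckb and Slc6a8. These were chosen by gene symbol, and all 10 were found among the 55011 symbols of the count table. RNA was sequenced from visceral adipose tissue of male C57BL/6 mice, 30 weeks old, after 14 weeks of low-fat and 16 weeks of high-fat feeding, at zeitgeber time 0 h, when lights go on. All mice of both groups carried Foxp3.Cre-YFP, a Cre recombinase with a yellow fluorescent protein under control of Foxp3, which marks regulatory T cells. The groups were 3 libraries labelled bmal1WT and 3 labelled bmal1KO, written Bmal1WT and Bmal1KO below. The comparison asks how fat of obese mice differs when the clock gene Bmal1 (Arntl) is deleted in Foxp3-expressing cells. Adipocytes are not among the cells in which this Cre is meant to act.

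In brown and beige adipocytes, UCP1 lets protons return across the inner mitochondrial membrane without making ATP, so that the energy of respiration is released as heat. PGC-1 coactivators, of which PGC-1 alpha is induced by adrenergic signals, drive mitochondrial genes and Ucp1. PRDM16 holds cells to the brown and beige programme, and the deiodinase DIO2 makes active thyroid hormone inside the cell. A second route to heat, the creatine cycle, phosphorylates and dephosphorylates creatine at the mitochondrion. GATM makes its precursor, SLC6A8 imports creatine and the kinase CKB moves phosphate onto it. White visceral fat of adult mice normally has very little of the UCP1 programme, and UCP2 is a related carrier made in many cells, macrophages among them.

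Total counts ran from 6514620 to 9529198 per library, and a count of 3, taken as the floor for detection, was 0.323 to 0.451 CPM (counts scaled to the size of the library). Counts of Arntl itself were 273, 242 and 373 in Bmal1WT and 324, 289 and 314 in Bmal1KO (replicates 1 to 3, the order used throughout), so this whole-tissue level does not separate the groups. Foxp3 had 0 counts in Bmal1WT and at most 3 in a Bmal1KO library. The summed level of 23 adipocyte markers was 64041 to 81156 CPM in Bmal1WT. It was 83378, 45033 and 38761 CPM in Bmal1KO replicates 1 to 3, and no marker of that list was at 0 in all libraries. Bmal1KO replicate 1 thus stood apart from the other Bmal1KO libraries and had counts on the most genes, 30019 against 19009 to 20145 elsewhere. Bmal1WT replicate 1 carried 746 CPM on a list of 20 epididymis and testis genes, against at most 4.7 CPM in the other 5. The testis genes Prm1, Prm2, Tnp1 and Tnp2 of that list had 0 counts in Bmal1WT replicate 1. In bulk tissue, fewer cells of a type and less RNA per cell cannot be told apart.

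The 10 genes spanned several orders of magnitude per length of transcript, and the creatine kinase gene Ckb and Ucp2 led them. On the scale of CPM per kilobase of the principal transcript, the median over the 6 libraries was 357 for Ckb and 285 for Ucp2. Ckb stood above Ucp2 in all 6 libraries, although their ranges of 231 to 447 and 160 to 392 overlapped. Gatm followed at a median of 23.8 CPM per kilobase, Slc6a8 at 11.0 and Ucp3 at 6.88, with overlapping ranges between neighbours. The remaining genes lay under 2 CPM per kilobase in every library. Their medians were 0.845 for Ppargc1b, 0.505 for Ppargc1a, 0.487 for Ucp1, 0.430 for Prdm16 and 0.0931 for Dio2, and each of these ranges overlapped with the next. The order of medians was the same with the length of all exons of a gene joined.

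**Figure D1:**
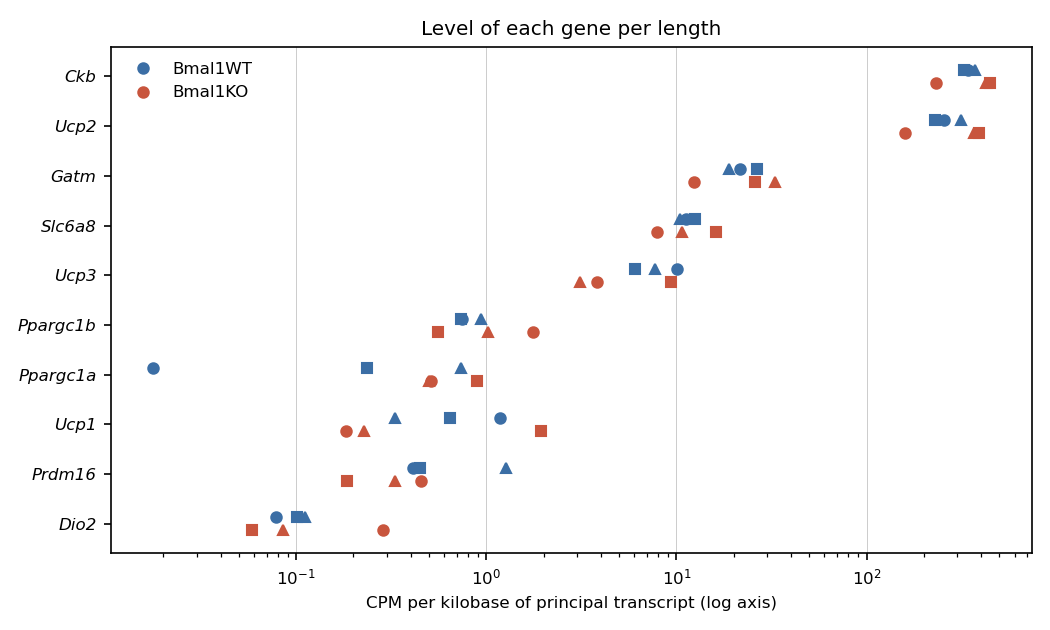
Level of each of the 10 genes in each library, in CPM per kilobase of the principal transcript on a log axis. Blue marks are Bmal1WT and red marks Bmal1KO, and circle, square and triangle are replicates 1, 2 and 3. Ckb and Ucp2 lie far above the rest, and Ucp1, Prdm16, Dio2 and both PGC-1 genes lie under 2.

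No difference between the groups passed the test over all genes for any of the 10 genes, and the Bmal1WT and Bmal1KO values overlapped for each of them. Of the 10, 8 passed the filter on low counts and were tested, while Ucp1 and Dio2 did not pass. By edgeR's quasi-likelihood test 0 of the 8 passed an adjusted p of 0.05, as did 0% of all 13859 genes tested. At an unadjusted p under 0.05 the test again had 0 of the 8, against 9.31% of all genes. DESeq2, which called 0.417% of its genes, and limma voom, which called 0%, had 0 of the 8 as well. The median log2 fold change of the 8, Bmal1KO over Bmal1WT, was 0.090, and the median over all genes tested was 0.018. Of the 8, 6 were above 0 and 2 below, and 48% of all genes tested were below 0. Groups without any overlap were found for 15.7% of all genes tested.

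**Figure D2:**
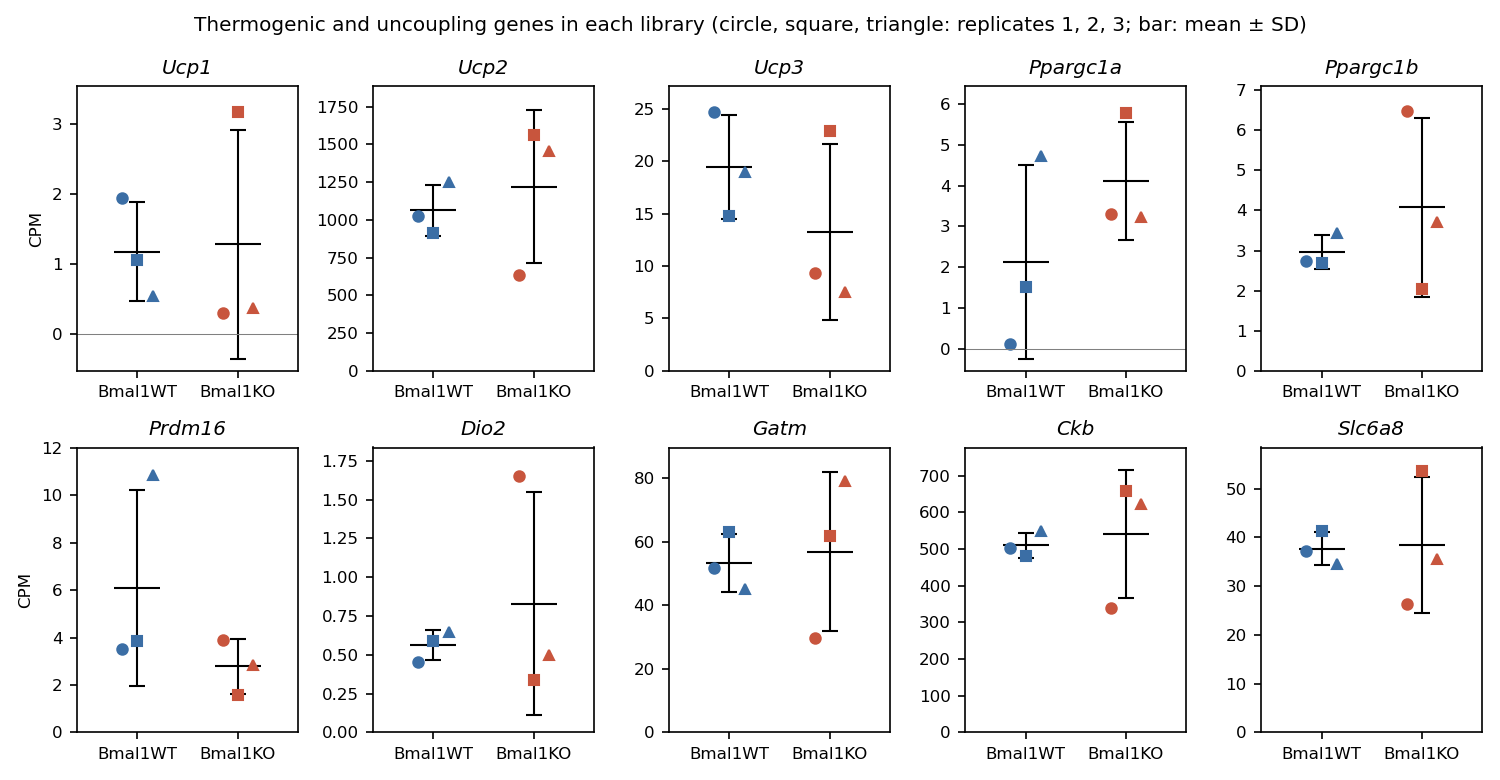
CPM of each of the 10 genes in every library, with its own linear axis per gene. Points are libraries (circle, square and triangle for replicates 1, 2 and 3) and bars the mean ± SD of 3 libraries. The groups overlap in all 10 panels, and for Ucp2, Gatm, Ckb and Slc6a8 the lowest point is Bmal1KO replicate 1.

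Among the uncoupling proteins, Ucp2 and Ucp3 are neighbours on mm10 chromosome 7, both on the plus strand, at 100493337 to 100502020 and 100472990 to 100486432, with 6904 bases between them. Ckb lies on chromosome 12 at 111669361 to 111672338, minus strand. Across the libraries Ucp2 followed Ckb: the order of the 6 libraries from lowest to highest was identical for Ucp2 and Ckb, an order shared by 35 of the genes tested (0.253%). The pair was noticed after the values were seen. Because of that shared order the 250 bases before their start sites are shown with those of Ucp3, from RefSeq on GRCm38.p6, at chr7:100493108-100493357 (plus strand), chr12:111672339-111672588 (minus strand) and chr7:100472741-100472990 (plus strand). Capitals mark matches on either strand to the searched motifs.
Ucp2: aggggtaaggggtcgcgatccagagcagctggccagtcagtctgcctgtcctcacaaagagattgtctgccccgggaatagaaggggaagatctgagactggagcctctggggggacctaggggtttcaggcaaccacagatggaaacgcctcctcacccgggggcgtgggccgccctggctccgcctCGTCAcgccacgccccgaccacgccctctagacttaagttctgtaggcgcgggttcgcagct
Ckb: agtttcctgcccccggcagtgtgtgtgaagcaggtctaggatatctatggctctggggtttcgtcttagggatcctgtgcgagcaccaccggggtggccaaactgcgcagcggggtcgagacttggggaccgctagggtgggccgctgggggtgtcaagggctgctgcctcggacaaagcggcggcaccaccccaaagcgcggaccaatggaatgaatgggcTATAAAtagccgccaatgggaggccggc
Ucp3: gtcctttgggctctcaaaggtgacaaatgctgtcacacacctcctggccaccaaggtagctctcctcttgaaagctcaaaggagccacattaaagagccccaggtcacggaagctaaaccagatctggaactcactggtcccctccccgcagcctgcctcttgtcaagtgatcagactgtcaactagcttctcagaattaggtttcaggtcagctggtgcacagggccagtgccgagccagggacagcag
The motifs were the E-box CACGTG, to which BMAL1 with CLOCK can bind, the cAMP response element TGACGTCA (with its core TGACG, which the full element contains on both strands), and TATAAA. Ucp2 had 1 match, to TGACG, which 17.8% of 32851 promoter windows of the same length hold. Ckb had 1 match, to TATAAA, held by 12.4% of windows, and in Ucp3 these letters were not in the window. The windows of Ucp2 and Ckb had a GC content of 63.6% and 62.8%, that of Ucp3 54.8%. Of the 10 genes 8 had a window. Among the other windows, TGACG was also found for Ucp1 and Ppargc1a, and Dio2 held both TGACGTCA (1.55% of windows) and TATAAA. The E-box, held by 6.02% of windows, was in none of the 8.

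Ucp1, the heat-producing uncoupling protein itself (chromosome 8, 83290352 to 83298452), was barely detected. Its counts were 17, 9 and 5 in Bmal1WT and 2, 28 and 3 in Bmal1KO. In CPM the highest library was Bmal1KO replicate 2 at 3.17 (95% exact Poisson interval 2.11 to 4.58, covering counting error only), followed by Bmal1WT replicate 1 at 1.94 (1.13 to 3.10). The other Bmal1KO libraries, at 2 and 3 counts, were at or under the floor. Group means were 1.18 ± 0.709 CPM for Bmal1WT and 1.28 ± 1.64 CPM for Bmal1KO (SD, n = 3 each). In the edgeR fit without a filter, which called 0.539% of all genes, its log2 fold change was 0.13 with SE 1.10 (adjusted p = 0.977). No difference in Ucp1 could be detected at this depth.

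Ucp2 was by far the most abundant uncoupling protein. Its level was 1024, 914 and 1249 CPM in Bmal1WT and 638, 1564 and 1457 CPM in Bmal1KO. Bmal1KO replicate 1 was lower and the other Bmal1KO libraries were higher than all Bmal1WT libraries. Its log2 fold change was 0.20 (SE 0.30, 95% interval -0.46 to 0.85, edgeR adjusted p = 0.856). Without Bmal1KO replicate 1 it was 0.51 (SE 0.16, adjusted p = 0.144). Its unadjusted p was then under 0.05, as were those of Prdm16 and Ckb and of 16.2% of all genes, and 1.09% of all genes passed the adjusted threshold. Without Bmal1KO replicate 2 it was -0.026, and its adjusted p over all alternatives ran from 0.144 to 0.990. Counts of Dnajb13, which shares 305 exon bases with Ucp2 on the other strand, were 138 to 311 per library, and reads in the shared bases cannot be assigned without strand.

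Ucp3, a carrier best known from skeletal muscle, measured 24.6, 14.8 and 18.9 CPM in Bmal1WT and 9.32, 22.9 and 7.57 CPM in Bmal1KO. Bmal1KO replicates 1 and 3 were below every Bmal1WT library and Bmal1KO replicate 2 lay inside their range. The difference was -0.55 log2 units (SE 0.40, 95% interval -1.44 to 0.35, edgeR adjusted p = 0.691), and it was -1.21 without Bmal1KO replicate 2 (unadjusted p then under 0.05, as for 7.36% of all genes) and -0.27 without Bmal1KO replicate 3. Adjusted p over the alternatives ran from 0.520 to 0.993. Ucp2 had 41.6, 61.9 and 66.0 counts for each count of Ucp3 in Bmal1WT, and 68.5, 68.4 and 192 in Bmal1KO, so that Bmal1KO replicate 3 stood apart in this ratio. The summed level of 16 skeletal muscle markers was 66.4 to 97.1 CPM in Bmal1WT and 65.1 to 111 CPM in Bmal1KO, of which 7 passed the filter. Of the 16 markers, 7 had counts in every library, among them the muscle actin Acta1 (138 to 611 counts) and the myosin light chain Myl1 (125 to 314). The calcium buffer Pvalb of the same list was at 18.9, 8.91 and 15.2 CPM in Bmal1WT and 6.77, 16.3 and 8.69 CPM in Bmal1KO. Like Ucp3 it was lowest in Bmal1KO replicates 1 and 3 and highest in Bmal1WT replicate 1. Acta1 and Myl1 had other orders. Acta1 was lowest in Bmal1WT replicate 3 (15.2 CPM) and highest in Bmal1KO replicate 2 (69.2 CPM). Myl1 was lowest in Bmal1KO replicate 2 (14.6 CPM) and highest in Bmal1WT replicate 2 (36.8 CPM). The myosin heavy chains Myh4 and Myh7 had 0 counts in 4 and 5 of the 6 libraries. The part of muscle RNA in the Ucp3 level was not tested.

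Ppargc1a, which encodes PGC-1 alpha (chromosome 5, 51454250 to 51567726), varied most of the 10 genes among the Bmal1WT libraries. Counts were 1, 13 and 44 in Bmal1WT and 22, 51 and 26 in Bmal1KO. Bmal1WT replicate 1, with its single count (0.114 CPM, 95% exact Poisson interval 0.00289 to 0.636), was below all others, while Bmal1WT replicate 3 at 4.73 CPM (3.44 to 6.36) lay inside the Bmal1KO range of 3.23 to 5.78 CPM. The coefficient of variation in Bmal1WT was 111%, against 22.7% from counting alone. The fitted log2 fold change was 0.94 (SE 0.87, 95% interval -0.98 to 2.86, edgeR adjusted p = 0.758). It was 0.39 without Bmal1WT replicate 1, the library with epididymis genes, and 2.32 without Bmal1WT replicate 3 (unadjusted p then under 0.05, as for 7.61% of all genes), with an adjusted p of 0.228 to 0.918 over all alternatives.

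Ppargc1b, which encodes the paralogue PGC-1 beta, was nearly level in Bmal1WT at 2.74, 2.695 and 3.44 CPM and ranged more widely in Bmal1KO at 6.47, 2.04 and 3.72 CPM. Here Bmal1KO replicate 1 was the highest library and Bmal1KO replicate 2 the lowest. Bmal1KO replicate 1 was also the library with counts on the most genes, 30019 against 19009 to 20145 elsewhere. Whether this bears on its low counts was not tested. The groups differed by 0.45 log2 units (SE 0.55, 95% interval -0.76 to 1.66, edgeR adjusted p = 0.818), and by -0.043 without Bmal1KO replicate 1. Bmal1KO replicate 2 was the highest library for Ppargc1a and the lowest for Ppargc1b, but both places were within counting error. Its 95% exact Poisson interval for Ppargc1b, 1.21 to 3.22 CPM, overlapped with those of all libraries but Bmal1KO replicate 1 (4.68 to 8.71). For Ppargc1a its interval, 4.30 to 7.59 CPM, overlapped with that of Bmal1WT replicate 3 (3.44 to 6.36).

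Prdm16, the zinc finger regulator of brown and beige identity (chromosome 4, 154316125 to 154636873), had the largest log2 difference of the 8 genes and did not pass the test. Its level was 3.54, 3.87 and 10.9 CPM in Bmal1WT and 3.91, 1.59 and 2.85 CPM in Bmal1KO. Bmal1WT replicate 3 stood far above the other 5 libraries, and Bmal1KO replicate 1 lay above Bmal1WT replicates 1 and 2. The log2 difference was -1.14 (SE 0.58, 95% interval -2.42 to 0.14, edgeR adjusted p = 0.564). Without Bmal1WT replicate 3 it was -0.41 (adjusted p = 0.891), without Bmal1KO replicate 1 it was -1.46 and without both replicates 1 it was -1.72, and the adjusted p over all alternatives ran from 0.266 to 0.891. In 4 of the 17 alternatives Prdm16 had an unadjusted p under 0.05: without a filter (7.25% of all genes), without Bmal1WT replicate 1 (6.97%), without Bmal1KO replicate 1 (16.2%) and without both replicates 1 (14.9%). Prdm16 is also made in arterial endothelium. The summed level of 16 endothelial markers was 771, 522 and 1115 CPM in Bmal1WT and 622, 366 and 410 CPM in Bmal1KO, highest in Bmal1WT replicate 3 and lowest in Bmal1KO replicates 2 and 3, as for Prdm16. Its part in the Prdm16 level was not tested.

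Dio2, the deiodinase that activates thyroid hormone, had counts of 4, 5 and 6 in Bmal1WT and of 11, 3 and 4 in Bmal1KO. Bmal1KO replicate 1, at 1.65 CPM (95% exact Poisson interval 0.826 to 2.96), was the highest library, and its interval overlapped with those of the others. Bmal1KO replicate 1 was also the library with counts on the most genes. Mean levels were 0.563 ± 0.0968 CPM in Bmal1WT and 0.830 ± 0.718 in Bmal1KO (SD, n = 3 each). In the edgeR fit without a filter the log2 fold change was 0.50 with SE 1.55 (adjusted p = 0.900), and no difference was detectable at this depth.

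The 3 creatine cycle genes were well detected and gave the narrowest intervals, together with Ucp2. Gatm, the first enzyme of creatine synthesis (chromosome 2, 122594467 to 122611303), was at 51.7, 63.2 and 45.1 CPM in Bmal1WT, against 29.6, 61.9 and 79.0 CPM in Bmal1KO. The Bmal1KO libraries thus enclosed the Bmal1WT range. The log2 fold change of Gatm was 0.10 (SE 0.30, 95% interval -0.57 to 0.76, edgeR adjusted p = 0.941), and it was -0.22 without Bmal1KO replicate 3 and 0.40 without Bmal1KO replicate 1.

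Ckb, the cytosolic creatine kinase of brain type, was at 502, 480 and 548 CPM in Bmal1WT, against 341, 657 and 623 CPM in Bmal1KO. Its Bmal1WT libraries agreed to a coefficient of variation of 6.77%, the smallest of the 10 genes in that group, and the Bmal1KO value was 32.2%. For Ckb the log2 fold change was 0.084 (SE 0.23, 95% interval -0.43 to 0.60, edgeR adjusted p = 0.932). In this fit of all 6 libraries a 2-fold difference in either direction lies outside the interval. Without Bmal1KO replicate 1 the log2 fold change was 0.33 (SE 0.14, adjusted p = 0.273, over all alternatives 0.273 to 0.983). Scaled to the summed counts of the adipocyte markers it was 0.74 (SE 0.45), which does not exclude a 2-fold increase. The processed pseudogenes Ckb-ps1 and Ckb-ps2 had 0 counts in all libraries.

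Slc6a8, the creatine transporter of the plasma membrane (chromosome X, 73673150 to 73682502), was at 37.2, 41.2 and 34.5 CPM in Bmal1WT, against 26.3, 53.7 and 35.5 CPM in Bmal1KO. Once more the Bmal1KO libraries lay on both sides of Bmal1WT. For Slc6a8 the log2 fold change was 0.035 (SE 0.25, 95% interval -0.52 to 0.59, edgeR adjusted p = 0.975).

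**Figure D3:**
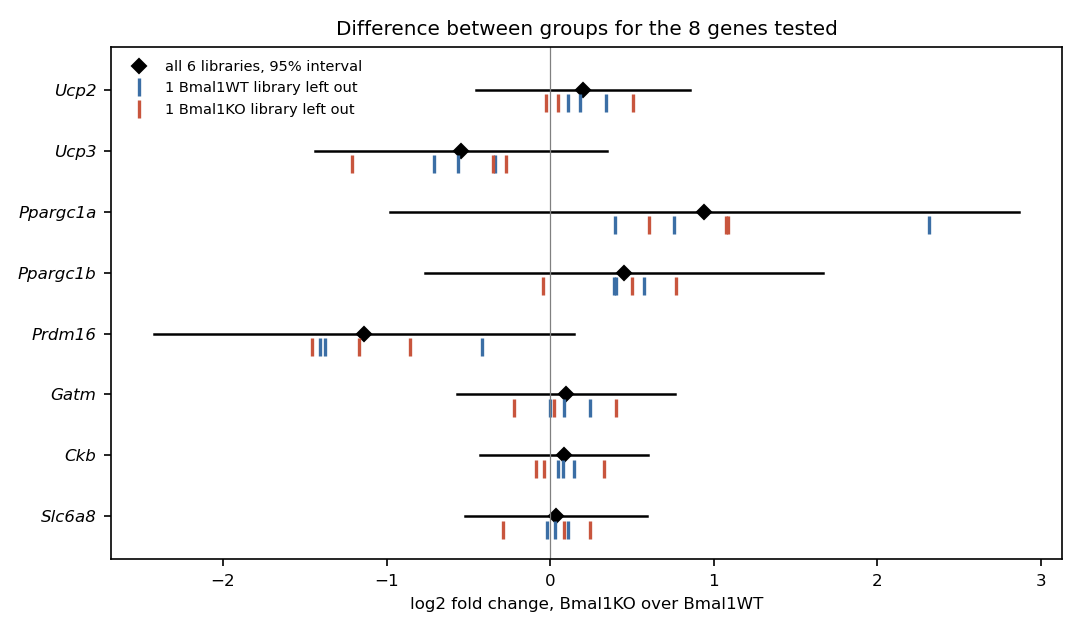
Log2 fold change of Bmal1KO over Bmal1WT for the 8 genes tested (black diamonds, lines for the 95% interval) and the values with 1 library left out (blue ticks for a Bmal1WT and red ticks for a Bmal1KO library). All 8 intervals include 0, and the value for Ppargc1a moves to 2.32 without Bmal1WT replicate 3.

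The abundant genes spread widely within Bmal1KO, which was not particular to them. Over all genes tested, pairs of Bmal1KO libraries correlated at 0.944 to 0.951 and pairs of Bmal1WT libraries at 0.966 to 0.968, in log2(CPM + 1). Ucp2, Gatm, Ckb and Slc6a8 were each lowest in Bmal1KO replicate 1, so that 4 of the 8 genes tested had their lowest value there, while 17.9% of all genes tested did. Bmal1KO replicate 2 was the highest library for Ucp2, Ppargc1a, Ckb and Slc6a8, and 18.6% of all genes tested were highest there. The median of the 8 genes' deviations from the Bmal1WT mean, in log2(CPM + 1), was -0.54, 0.31 and 0.28 in the 3 Bmal1KO libraries, while Bmal1WT libraries ran from -0.089 to 0.14. Cell type markers also varied among the libraries. The summed level of 18 macrophage markers was 8907, 16001 and 18795 CPM in Bmal1KO replicates 1 to 3 and 13393, 12656 and 8941 CPM in Bmal1WT, so that Bmal1KO replicate 1 and Bmal1WT replicate 3 were nearly level at the low end. Averaged over the markers in log2(CPM + 1), the lowest library was Bmal1WT replicate 3, at -0.28 against -0.18 in Bmal1KO replicate 1. Single macrophage markers went either way between these libraries. Csf1r was at 437 CPM in Bmal1KO replicate 1 and 597 CPM in Bmal1WT replicate 3, and Cd68 at 667 and 1030 CPM. Lyz2, the largest part of the sum, was at 4702 and 4113 CPM, and Mrc1 at 129 and 97.6 CPM. The summed adipocyte markers were highest in Bmal1KO replicate 1. Their average deviation from the Bmal1WT mean in log2(CPM + 1) was 0.19 both there and in Bmal1WT replicate 3. It was -0.78 and -0.98 in Bmal1KO replicates 2 and 3. T cell markers were at 169, 318 and 275 CPM in Bmal1KO and at 79.6, 162 and 124 CPM in Bmal1WT. Ucp2 and Ckb were at 1249 and 548 CPM in Bmal1WT replicate 3, and at 638 and 341 CPM in Bmal1KO replicate 1. The part of cell composition in these gene levels was not tested.

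Scaled to the summed counts of the adipocyte markers in place of TMM, values are relative to adipocyte marker RNA, and the median of all genes tested moved from 0.018 to 0.57. On that scale Ucp2 stood at a log2 fold change of 0.89 (SE 0.45), Ckb at 0.74 (SE 0.45) and Ppargc1a at 1.61 (SE 0.72), above the median gene. Ppargc1b, at 0.86 (SE 0.70), Gatm, at 0.78 (SE 0.43), and Slc6a8, at 0.65 (SE 0.43), were above the median gene as well. Ucp3, at 0.0076 (SE 0.46), and Prdm16, at -0.63 (SE 0.66), were below it. Of the 8 genes 0 passed edgeR's test, against 1.26% of all genes, and 1, Ppargc1a, had an unadjusted p under 0.05, against 17.3% of all genes.

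**Figure D4:**
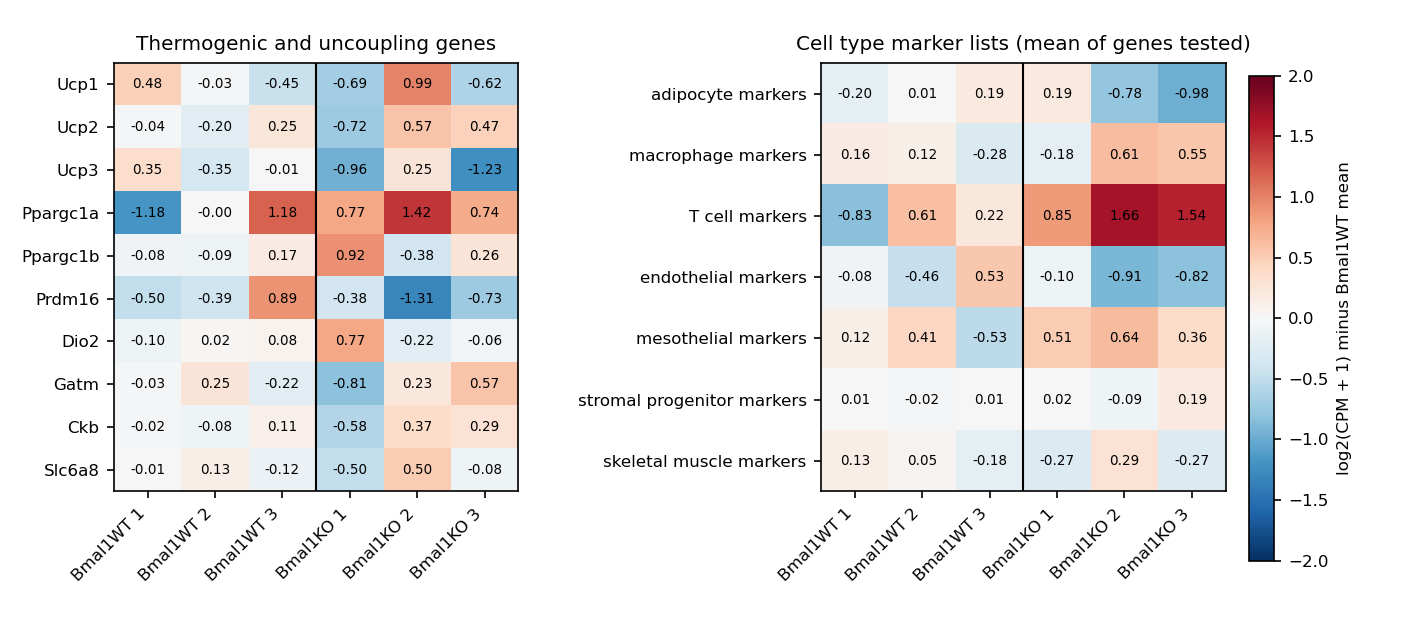
Deviation of each library from the Bmal1WT mean in log2(CPM + 1), for the 10 genes (left) and, averaged over genes tested, for 7 cell type marker lists (right). Red is higher and blue lower. In Bmal1KO replicate 1 Ucp2, Gatm, Ckb and Slc6a8 are blue, while in Bmal1KO replicate 2 they are red.

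Of the other genes of these pathways, none passed edgeR's test over all genes. In the beige and brown adipocyte programme, 22 of 30 genes were tested, and 2 were higher and 2 lower at an unadjusted p under 0.05, where 5.05% and 4.26% of all genes were. The list median was a log2 fold change of -0.059. Cidea, a lipid droplet protein abundant in brown fat, was at 3.76, 4.22 and 2.58 CPM in Bmal1WT, against 8.27, 9.06 and 8.31 CPM in Bmal1KO (1.28 log2 units, SE 0.38, edgeR adjusted p = 0.414). All Bmal1KO values were above all Bmal1WT values, unlike Ucp1, and 15.7% of all genes tested had no overlap in either direction. Irf4, a transcription factor of both adipocytes and lymphocytes, differed by 1.11 log2 units (SE 0.41), the purinergic receptor P2rx5 by -2.18 (SE 0.84) and the small heat shock protein gene Hspb7 by -0.67 (SE 0.30). The brown fat developmental genes Zic1 and Tbx1 and the secreted factor Bmp8b had 0 counts in all 6 libraries.

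Among 20 regulators of thermogenic transcription 17 were tested, with a median of 0.096, beside 0.018 over all genes tested. At an unadjusted edgeR p under 0.05, 0 were higher, against 5.05% of all genes, and 1 was lower, against 4.26%. That was Pparg, the master regulator of adipocytes (-0.68, SE 0.18, adjusted p = 0.414). Zfp516, a cold-induced activator of Ucp1, had 1.08 (SE 0.56), and Creb1 and the coactivator Ncoa2 had 0.34 (SE 0.24) and 0.37 (SE 0.26). All 18 partners of PGC-1 in mitochondrial biogenesis were tested, with a median of -0.13. Of the 18, 0 were past the unadjusted threshold, against 9.31% of all genes. The mitochondrial deacetylase Sirt3 had -0.39 (SE 0.25), the transcription factor Tfb2m -0.50 (SE 0.33), the helicase Twnk -0.46 (SE 0.34) and Yy1 0.30 (SE 0.23).

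Of 6 other creatine genes 3 passed the filter. Gamt, the second enzyme of creatine synthesis, was at 89.9, 104 and 104 CPM in Bmal1WT, against 74.0, 69.9 and 63.9 CPM in Bmal1KO (-0.52, SE 0.16, adjusted p = 0.414). Its groups did not overlap, as for 15.7% of all genes tested, while those of Gatm, the step before it, overlapped. For each count of Gamt there were 0.575, 0.608 and 0.432 counts of Gatm in Bmal1WT and 0.400, 0.886 and 1.24 in Bmal1KO, and these ratios overlapped. The phosphatase Alpl, which can act on phosphocreatine, had -0.37 (SE 0.50), and the mitochondrial kinase Ckmt1 0.48 (SE 1.13) on at most 21 counts a library. The mitochondrial kinase Ckmt2 had 3 counts in Bmal1KO replicate 1, the library with counts on the most genes, and 0 elsewhere.

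Of 12 genes of calcium cycling, another route to heat, 7 were tested, with a median of 0.26. Of the 7, 0 were past the unadjusted threshold, against 9.31% of all genes. The 4 of smallest p, Adra1a, Itpr3, Atp2a3 and Ryr1, had log2 fold changes of 0.26 to 0.42 with SE of 0.30 to 0.41. Of 15 mitochondrial carriers related to the uncoupling proteins 13 were tested, with a median of -0.17. Of the 13, 10 were below 0 and 3 above, and 48% of all genes tested were below 0. At an unadjusted edgeR p under 0.05, 0 were higher, against 5.05% of all genes, and 1 was lower, against 4.26%. The dicarboxylate carrier Slc25a10 had -0.57 (SE 0.18, adjusted p = 0.414), the carnitine carrier Slc25a20 -0.37 (SE 0.17), the ADP/ATP carrier Slc25a4 -0.24 (SE 0.15) and Slc25a30 -0.43 (SE 0.34).

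Of 18 genes of adrenergic and thyroid signalling 14 were tested, with a median of -0.16. At an unadjusted edgeR p under 0.05, 0 were higher, against 5.05% of all genes, and 1 was lower, against 4.26%. That was the retinoid receptor Rxrg (-0.66, SE 0.26, adjusted p = 0.477). Adrb3, the adrenergic receptor of adipocytes and also on the adipocyte marker list, was at 175, 155 and 208 CPM in Bmal1WT, against 191, 101 and 57.8 CPM in Bmal1KO (-0.62, SE 0.35). Its Bmal1KO replicate 1 value lay inside the Bmal1WT range, and Bmal1KO replicates 2 and 3 lay below it. The kinase subunit Prkaca had -0.30 (SE 0.17) and the thyroid hormone receptor Thra -0.45 (SE 0.26).

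**Figure D5:**
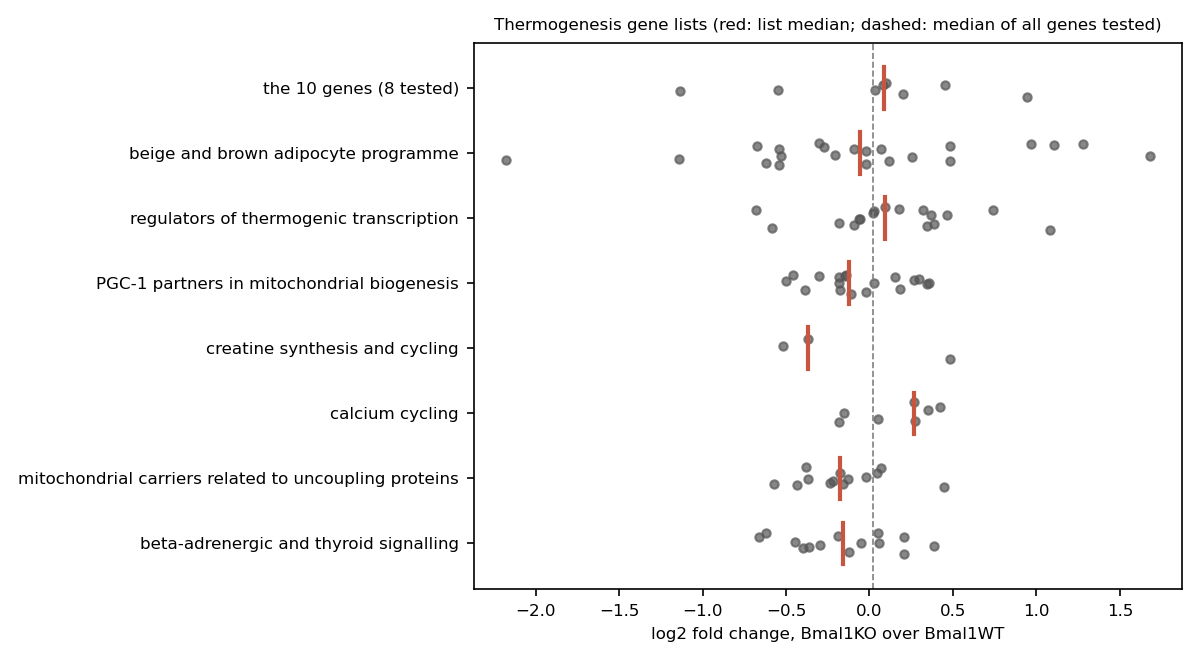
Log2 fold change of Bmal1KO over Bmal1WT for the genes tested of each list (grey points), with the list median (red bar) and the median of all 13859 genes tested (dashed line). Medians lie between -0.37 and 0.26, and no gene shown passed the test over all genes.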

How the data were processed

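The authors deposited whole-number counts for each gene symbol, from alignment with STAR 2.7.3a to mm10 and featureCounts, as the submitters' processing notes list. Which annotation and strand setting were used is not given in the sources used here. Per the labels' protocols, cDNA was primed with oligo(dT), amplified and cut with Nextera XT, a library that does not mark strand, so reads of overlapping genes on opposite strands cannot be separated. There are no molecular identifiers, so Poisson intervals and the floor cover counting error only.

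Groups and replicate numbers came from the titles. No label says that the libraries come from separate animals, and p-values then measure only spread among these samples, which may be technical. The test was edgeR 4.0.16 (R 4.3.3) on the counts (filterByExpr, 13859 genes, TMM, robust quasi-likelihood F-test, no covariates, Benjamini-Hochberg over all genes, threshold 0.05). CPM use TMM-scaled library sizes. The SE is the absolute unshrunken log2 coefficient over the square root of F. Totals of 6514620 to 9529198 counts make 3 counts 0.323 to 0.451 CPM. Lengths and coordinates are from GENCODE M21 (mm10), where the 10 symbols each matched 1 gene, and promoters from RefSeq (GRCm38.p6).

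The 10 genes, the lists and the rule for named genes (the 10, Arntl, Foxp3, and the 4 of smallest p per pathway list) were chosen with earlier results of these data known. Other genes named, such as the muscle markers, Dnajb13, the genes at 0, Ckmt2 and the Ckb pseudogenes, were named after their values were seen. Alternatives were other scalings, filters and thresholds, DESeq2 1.42.0, limma 3.58.1 voom, a replicate block and libraries left out. The scripts were tested on simulated data.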

Additional observations from a re-analysis of the deposited data

How the results depend on the processing

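None of the 8 genes tested was called under any of 17 alternatives (smallest adjusted p = 0.144), and the count of these genes called was 0 throughout. Of 136 values for single genes, 125 kept their direction and 11 turned. The alternative with a threshold of 0.1 reused the fit of the edgeR test, so its values could not turn. Scaled to adipocyte markers, Ucp3 turned to 0.0076 log2 units, with the replicate block Slc6a8 turned to -0.021, and without both replicates 1 Ppargc1b turned to -0.085. With 1 library left out, Ucp2 ran from -0.026 to 0.51, Ppargc1b from -0.043 to 0.77, Gatm from -0.22 to 0.40, Ckb from -0.088 to 0.33 and Slc6a8 from -0.29 to 0.24, each turning without at least 1 library. Gatm was also at -0.0033 and Slc6a8 at -0.019 without Bmal1WT replicate 3, and Ckb at -0.037 without Bmal1KO replicate 3. The cause was not tested. The median of the 8 genes ran from -0.057 to 0.28 with 1 library left out and was 0.76 when scaled to adipocyte markers, a scale that moved the median of all genes to 0.57. Over all genes, 0 were called in the edgeR test, with 1290 at an unadjusted p under 0.05, and from 0 to 156 were called with 1 library left out (156 without Bmal1KO replicate 1, 6 without Bmal1KO replicate 2, 1 without Bmal1WT replicate 1). The count was 61 without both replicates 1, 60 by DESeq2, 0 by limma voom, 186 without a filter and 174 (172 higher, 2 lower) scaled to adipocyte markers.

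Same-numbered libraries correlated at -0.097, 0.11 and -0.033 in their deviations from the group means. No pairing by number was seen in these values, which cannot exclude it. With the replicate block 0 genes were called and the median of the 8 was 0.015. With 3 libraries against 3, and at most 28 counts of Ucp1 and 11 of Dio2 in a library, only large differences could be detected for these low genes.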
